A study of Mus musculus with 18 samples.

Results

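Transforming growth factor-β (TGF-β) receptors and Smads were examined in haematopoietic progenitors of lupus-prone and control mice. The 10 genes were chosen by name: the ligand Tgfb1, the receptors Tgfbr1, Tgfbr2 and Tgfbr3, the signal transducers Smad2, Smad3 and Smad4, the inhibitory Smad7, and the co-repressors Ski and Skil. All 10 were present among the 19780 genes of the LSK table and among the 18428 genes of the CMP table. LSK are lineage-negative bone marrow cells with Sca-1 and c-Kit on their surface, among them the haematopoietic stem cells, and CMPs, sorted here with CD34 as a marker, are common myeloid progenitors. RNA of sorted cells was sequenced in 12 LSK libraries, 3 in each of 4 groups, and in 6 CMP libraries, 3 in each of 2 groups. F1-P were prediseased NZBW/F1 mice of 12 weeks, and F1-L were NZBW/F1 mice of 28 to 36 weeks with lupus, defined in the study by proteinuria. B6-Y and B6-O were C57BL/6 mice of 12 weeks and of 28 to 36 weeks, and all mice were female. NZBW/F1 mice are a cross of NZB with NZW that acquires lupus without any inducing agent, so F1-L differed from F1-P in age as well as in disease and the 2 cannot be told apart by that comparison alone. CMPs were profiled in NZBW/F1 mice only.

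TGF-β is secreted in a latent form, and once released it binds the type II receptor, encoded by Tgfbr2, which recruits and activates the type I receptor, encoded by Tgfbr1. The type I receptor phosphorylates Smad2 and Smad3, which join Smad4 and enter the nucleus, where Ski and Skil (also called SnoN) restrain the transcription that they drive. Smad7 and Skil are themselves induced by the signal and close a negative feedback, and in the bone marrow the pathway is known for holding haematopoietic stem cells in quiescence.

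Promoter sequences are shown for Tgfb1, the gene whose LSK level differed most clearly between the mouse strains, and for Tgfbr2 and Smad3, whose level was lower in every CMP library than in every LSK library of the same strain. RefSeq promoters (GRCm38.p6) were found for 5 of the 10 genes by symbol. Each line gives the 250 bases before the annotated start, 5′ to 3′ on the strand of the gene. Capitals mark the Smad-binding motif CAGAC and the GC box GGGCGG, both searched on both strands. These are sequences of the reference strain, not of NZB or NZW mice.

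Tgfb1, chr7:25686752-25687001, plus strand: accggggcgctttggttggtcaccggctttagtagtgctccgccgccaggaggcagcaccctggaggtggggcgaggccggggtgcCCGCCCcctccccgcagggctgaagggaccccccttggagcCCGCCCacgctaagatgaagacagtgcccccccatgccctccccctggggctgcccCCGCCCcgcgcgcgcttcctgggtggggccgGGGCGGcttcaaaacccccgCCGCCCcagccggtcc

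Tgfbr2, chr9:116175364-116175613, minus strand: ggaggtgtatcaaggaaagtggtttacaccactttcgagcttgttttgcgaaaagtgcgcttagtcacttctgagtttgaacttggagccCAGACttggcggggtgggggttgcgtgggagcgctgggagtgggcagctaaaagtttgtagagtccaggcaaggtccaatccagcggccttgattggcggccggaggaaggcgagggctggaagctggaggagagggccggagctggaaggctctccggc

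Smad3, chr9:63757995-63758244, minus strand: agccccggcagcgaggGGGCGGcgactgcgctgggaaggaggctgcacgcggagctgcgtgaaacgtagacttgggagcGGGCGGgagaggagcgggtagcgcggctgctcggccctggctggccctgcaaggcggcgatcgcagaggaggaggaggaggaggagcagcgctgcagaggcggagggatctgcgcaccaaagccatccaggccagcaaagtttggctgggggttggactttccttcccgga

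The Tgfb1 window held 5 GC boxes and no CAGAC, the Tgfbr2 window held 1 CAGAC and no GC box, and the Smad3 window held 2 GC boxes and no CAGAC. Over all 32851 promoters of the table, 42.2% held CAGAC and 32.7% held the GC box within the same 250 bases, so neither motif is unusual, and a match describes letters and not a bound site.

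The level of each gene is given as CPM, reads relative to a library size that the authors scaled by a normalization factor. Libraries held 23772252 to 28493747 reads in LSK and 20001328 to 24761060 in CMPs, and the least expressed of the 10 genes, Tgfbr3, had 187 reads in its lowest LSK library. The share of immunoglobulin reads was 16.8% to 36.6% for NZBW/F1 LSK and 0.301% to 4.76% for C57BL/6 LSK. Summed T and NK cell markers were 208 to 470 CPM in NZBW/F1 LSK and 49.1 to 125 CPM in C57BL/6 LSK. Ly6a, the gene of Sca-1, was 293 to 879 CPM in NZBW/F1 LSK, 35.5 to 113 CPM in C57BL/6 LSK and 1.14 to 6.70 CPM in CMPs, whereas the study's methods name Sca-1 as positive for the CMP gate too. Erythroid markers summed to 3240 to 5530 CPM in CMPs. In bulk RNA, a gene at a lower level per cell cannot be told apart from fewer cells that express it. The limma test was run on log2(CPM + 1), a scale that understates changes of low genes, for genes that reached 1 CPM in 3 or more of the libraries compared, and a gene was called where its adjusted p did not exceed 0.05 and its fold change exceeded 1.5. The labels do not say whether the 3 libraries of a group came from separate animals, so the p-values measure the spread between libraries, which may be partly technical.

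In LSK, the 10 genes covered a wide range of levels per length. Divided by the exon length, Tgfb1 was the highest at 40.3 CPM per kb (mean of 12 LSK libraries), followed by Smad7 at 23.5, Skil at 22.1 and Smad4 at 22.0 CPM per kb. The libraries of Smad7 spanned 10.7 to 41.0 CPM per kb and those of Skil 4.01 to 49.0, so the order of these 3 genes is within their spread. Tgfbr2 stood at 12 and Tgfbr1 at 9.35 CPM per kb, with overlapping ranges. Smad2, at 5.81, was below Smad3, at 18.6 CPM per kb, in every library. Tgfbr3 was the lowest at 2.67 CPM per kb, with a highest library of 4.82 against a lowest library of 4.80 for Smad2.

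In LSK of lupus mice against prediseased mice, none of the 10 genes was called by limma, where 0.0279% of the 14332 genes tested were called. At an unadjusted p under 0.05, 1 of the 10 passed, against 12.8% of all genes, and 1 of the 10 had groups that did not overlap, against 17.7%. Both counts refer to Tgfbr3. The median difference of the 10 was -0.083, against -0.0096 over all genes. The edgeR quasi-likelihood and likelihood ratio tests called none of the 10 in this comparison and DESeq2 called 1, again Tgfbr3. Over all genes these tests called 3, 657 and 746, in that order.

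Tgfbr3 (chromosome 5, 107106570 to 107289629, minus strand) encodes betaglycan, a co-receptor that presents the ligand to the type II receptor. Its level was 11.7, 10.9 and 9.62 CPM in the 3 F1-P LSK libraries and 12.8, 31.5 and 21.7 CPM in the 3 F1-L libraries. Every F1-L library lay above every F1-P library, but F1-L 1 was only just above them. The difference was 0.89 on the log2 scale (SE 0.299, 95% interval 0.18 to 1.59, unadjusted p = 0.0208, limma adjusted p = 0.293). In DESeq2 it was 1.03 with an adjusted p of 0.0354. Without F1-L replicate 2 the limma difference was 0.59 and without F1-L replicate 1 it was 1.21.

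The same gene was 15.8, 12.5 and 13.9 CPM in B6-Y and 23.3, 31.5 and 14.9 CPM in B6-O. B6-O 1 and B6-O 2 lay above all B6-Y libraries, and B6-O 3 lay within their range. The difference between the C57BL/6 ages was 0.63 (95% interval -0.0049 to 1.27, unadjusted p = 0.0514, limma adjusted p = 0.765). Whether the F1-L minus F1-P difference departs from the B6-O minus B6-Y difference was tested as a difference of differences, which was 0.25 (95% interval -0.69 to 1.2, limma adjusted p = 0.977).

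Long-term stem cell markers were set beside Tgfbr3 in LSK. Their summed level over 10 genes, all detected, was 404 to 543 CPM in F1-P, 507 to 922 in F1-L, 650 to 805 in B6-Y and 857 to 1080 in B6-O. The sum was 922 CPM in F1-L 2, the F1-L library with the highest Tgfbr3, and 507 CPM in F1-L 1, the one with the lowest. In F1-P the order differed, since F1-P 3 had the highest sum, 543 CPM, and the lowest Tgfbr3, and all B6-Y sums were above those of F1-L 1 and F1-L 3 although Tgfbr3 was lower in B6-Y than in F1-L 3. Of these 10 markers, 9 were higher and 1 lower in F1-L than in F1-P, by -0.11 to 1.86 with a median of 0.59. At an unadjusted p under 0.05, 5 passed, all higher, against 12.8% of all genes. The widest difference was that of Vwf, the gene of von Willebrand factor, named after its values were seen. Vwf was 16.9, 12.5 and 18.5 CPM in F1-P and 31.3, 119 and 57.4 CPM in F1-L. Neutrophil markers also separated the NZBW/F1 groups, with sums of 301 to 1280 CPM in F1-P and 1980 to 12400 CPM in F1-L, and the highest sum was in F1-L 1. Of 6 platelet and megakaryocyte markers tested, 5 were higher and 1 lower in F1-L. All 6 passed an unadjusted p under 0.05, against 12.8% of all genes. Their sums were 51.8, 36.3 and 47.5 CPM in F1-P and 74.6, 135 and 121 CPM in F1-L. In B6-O the highest sum, 255 CPM, was in B6-O 3, the B6-O library with the lowest Tgfbr3. B and plasma cell sums were 14500 to 37100 CPM in F1-P and 9570 to 12700 CPM in F1-L. The part of all these markers in the Tgfbr3 values was not tested.

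**Figure D1:**
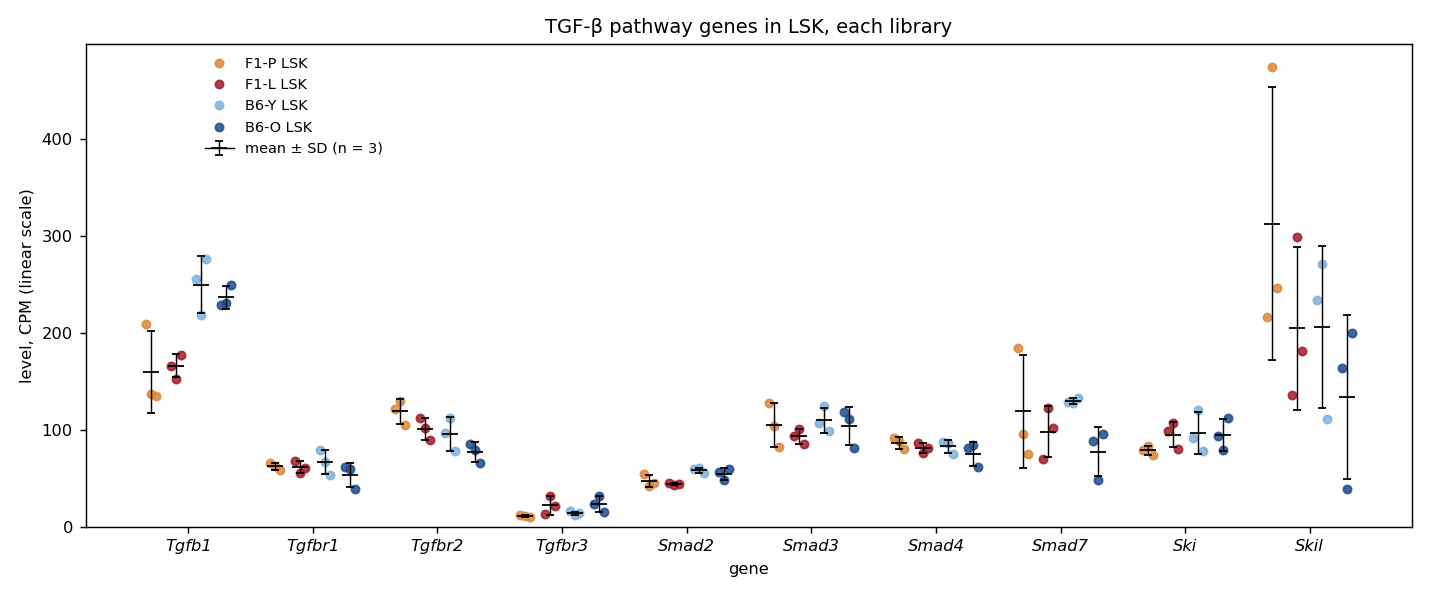
Level of each of the 10 genes in the 12 LSK libraries (vertical axis, CPM, linear), with 1 point per library, groups in colour, and the mean ± SD of 3 libraries in black. Tgfb1 is 219 CPM or more in every C57BL/6 library and 209 CPM or less in every NZBW/F1 library, and Skil has the widest spread, from 38.9 to 475 CPM.

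The signalling receptors and the Smads that transmit the signal overlapped between F1-P and F1-L LSK. Tgfbr2 (chromosome 9, 116084293 to 116175360, minus strand) was 122, 130 and 105 CPM in F1-P and 112, 102 and 89.8 CPM in F1-L, with overlapping groups. Tgfbr1 (chromosome 4, 47353222 to 47414931, plus strand) was 65.9, 63.1 and 58.9 CPM in F1-P and 68.2, 55.9 and 60.7 CPM in F1-L. Smad4, the partner that both Smad2 and Smad3 share, was 91.2, 88.4 and 80 CPM in F1-P and 86.2, 75.9 and 81.5 CPM in F1-L. Smad3 was 128, 104 and 82.8 CPM in F1-P and 93.2, 101 and 85.9 CPM in F1-L. None of these groups separated. The 95% intervals of the differences were -0.53 to 0.063 for Tgfbr2, -0.28 to 0.23 for Tgfbr1, -0.32 to 0.14 for Smad4, -0.36 to 0.20 for Smad2 and -0.54 to 0.24 for Smad3, all on the log2 scale. All 5 intervals lie within a change of 1.5-fold in either direction.

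The feedback genes had wide spreads within a group. Skil was 217, 475 and 246 CPM in F1-P LSK and 136, 299 and 181 CPM in F1-L LSK, and Smad7 was 185, 96.2 and 75.3 CPM in F1-P and 70.0, 123 and 102 CPM in F1-L. Both overlapped between the groups. The differences were -0.59 for Skil (95% interval -1.48 to 0.29) and -0.20 for Smad7 (95% interval -1.03 to 0.63), so a change of more than 1.5-fold in Skil could not be told from none at this spread. Ski (chromosome 4, 155154075 to 155222592, minus strand) was 79.7, 83.2 and 74.0 CPM in F1-P and 98.6, 107 and 80.6 CPM in F1-L, a difference of 0.26 (95% interval -0.035 to 0.55).

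In C57BL/6 LSK, none of the 10 genes was called between B6-O and B6-Y, and none of the 14005 genes tested was called by limma (0%). At an unadjusted p under 0.05, 1 of the 10 passed, against 6.62% of all genes, and the groups of 1 of the 10 did not overlap, against 11.3%. That gene was Smad7 in both counts. The median difference of the 10 was -0.13, against 0.021 over all genes. edgeR's 2 tests and DESeq2 called 0 of the 10. Over all genes edgeR's quasi-likelihood test called 0, its likelihood ratio test 110 and DESeq2 198. Smad7 was 129, 128 and 133 CPM in B6-Y and 89.0, 48.5 and 95.7 CPM in B6-O. The 3 young libraries were nearly equal, and all 3 older ones were lower. The difference was -0.79 (SE 0.254, unadjusted p = 0.0155, limma adjusted p = 0.542). The 95% intervals of the other genes but Skil and Tgfbr3 were -0.43 to 0.28 for Tgfb1, -0.84 to 0.20 for Tgfbr1, -0.73 to 0.12 for Tgfbr2, -0.43 to 0.23 for Smad2, -0.53 to 0.33 for Smad3, -0.54 to 0.24 for Smad4 and -0.51 to 0.45 for Ski, so that for Tgfbr1 and Tgfbr2 a fall of 1.5-fold lies inside the interval.

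The signalling receptors, Smad3, Smad4 and Ski overlapped between the C57BL/6 ages. Tgfbr1 was 78.8, 67.3 and 53.8 CPM in B6-Y and 61.5, 59.7 and 39.5 CPM in B6-O, and Tgfbr2 was 97.3, 112 and 78 CPM in B6-Y. Smad3 was 107, 125 and 99.2 CPM in B6-Y and 118, 111 and 81.3 CPM in B6-O. B6-O 3 was the lowest of the 6 libraries for both receptors and Smad3. Smad4 was 87.6, 86.9 and 75.5 CPM in B6-Y and 80.8, 84.3 and 61.4 CPM in B6-O, and Ski was 91.8, 121 and 78.5 CPM in B6-Y and 93.4, 79 and 112 CPM in B6-O. For Smad4 the lowest library was again B6-O 3, but not for Ski.

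Skil in the same mice was 234, 271 and 111 CPM in B6-Y and 164, 38.9 and 200 CPM in B6-O, with overlapping groups and a difference of -0.81 (95% interval -2.27 to 0.64). The library B6-O 2 had the lowest level of both Smad7 and Skil among all LSK libraries. Neutrophil markers summed to 10700 CPM in B6-O 3, against 832 and 1740 CPM in the other B6-O libraries, and to 5440 CPM in B6-Y 2, against 485 and 499 CPM in the other B6-Y libraries. Without B6-O 3 alone, Skil differed by -1.25 and Smad7 by -0.97, and without B6-O 2 alone Skil differed by -0.085. Without replicate 3 of both groups, which also leaves out the B6-Y library with the lowest Skil, Skil differed by -1.64 (limma adjusted p = 0.202) and Smad7 by -0.95 (limma adjusted p = 0.144), and still 0 of the 10 genes were called. The difference of differences between the strains was called for none of the 10 and for 0% of 15084 genes. At an unadjusted p under 0.05 it was 0 of the 10 against 3.92% of all genes, and edgeR's tests and DESeq2 called 0 of the 10. Over all genes edgeR's quasi-likelihood test called 0, its likelihood ratio test 10 and DESeq2 32.

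Tgfb1 separated the strains. Tgfb1 (chromosome 7, 25687002 to 25705077, plus strand), the ligand, was 209, 137 and 135 CPM in F1-P and 166, 153 and 177 CPM in F1-L. In C57BL/6 mice it was 256, 219 and 276 CPM in B6-Y and 229, 231 and 250 CPM in B6-O. All 6 C57BL/6 libraries were above all 6 NZBW/F1 libraries. The share of all genes that separate the strains in this way was not counted, so this separation cannot be set against a background. Within the age classes, the groups did not overlap for 37.4% of all genes between F1-L and B6-O and for 35.5% between F1-P and B6-Y. Between F1-L and B6-O the difference was -0.51 (SE 0.123, limma adjusted p = 0.0394), which passed the test but not the 1.5-fold minimum. Between F1-P and B6-Y it was -0.67 (SE 0.197, limma adjusted p = 0.055). Without F1-P replicate 1, the highest NZBW/F1 library, the second difference was -0.87 (limma adjusted p = 0.0112) and was called, as was that of Smad7 at -0.60 (limma adjusted p = 0.0367). Over all fits without a single library, the second Tgfb1 difference ran from -0.87 to -0.56, with limma adjusted p of 0.0112 to 0.215. The first ran from -0.56 to -0.46, with limma adjusted p of 0.0223 to 0.172.

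In the comparison of F1-L with B6-O none of the 10 genes was called, against 11.6% of 14381 genes. At an unadjusted p under 0.05 it was 2 of the 10, Tgfb1 and Tgfbr2, against 27.5% of all genes, and 3 of the 10 did not overlap, against 37.4%. In the comparison of F1-P with B6-Y none of the 10 was called, against 16.2% of 14380 genes. The unadjusted test passed 1 of the 10, against 31.3% of all genes, and 3 of the 10 did not overlap, against 35.5%. DESeq2 called 1 of the 10 in the second comparison, Tgfb1, and 0 in the first, while edgeR's tests called 0 in both. Over all genes, DESeq2 called 2804 in the second and 2314 in the first. In the same order, edgeR's quasi-likelihood test called 2308 and 1601, and its likelihood ratio test 2745 and 2218. All of these shares of the 10 genes lie below those of all genes, although 3 of 10 is near 35.5% and 37.4%. The median difference of the 10 was 0.064 between F1-L and B6-O, against -0.025 over all genes, and -0.16 between F1-P and B6-Y, against -0.042.

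Smad2 lay apart between the strains in both age classes. It was 54.3, 42.1 and 44.7 CPM in F1-P, 45.6, 43.3 and 44.2 CPM in F1-L, 59.2, 60.2 and 55.3 CPM in B6-Y and 56.4, 47.9 and 59.2 CPM in B6-O. Each NZBW/F1 group was below its age-matched C57BL/6 group, but by -0.29 (limma adjusted p = 0.206) and -0.31 (limma adjusted p = 0.169) only. Tgfbr2 was higher in F1-L than in B6-O, where it was 85.4, 79.5 and 65.9 CPM, by 0.39 (limma adjusted p = 0.14). Tgfbr3 was lower in F1-P than in B6-Y in every library, by -0.36 (limma adjusted p = 0.199). Reads of NZBW/F1 mice were aligned to the C57BL/6 genome, and the strains also differed in immunoglobulin reads and T and NK markers. The part of each in the strain differences was not tested, apart from a scaling without immunoglobulin genes, under which Tgfb1 differed by -0.46 between F1-L and B6-O (limma adjusted p = 0.0582).

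**Figure D2:**
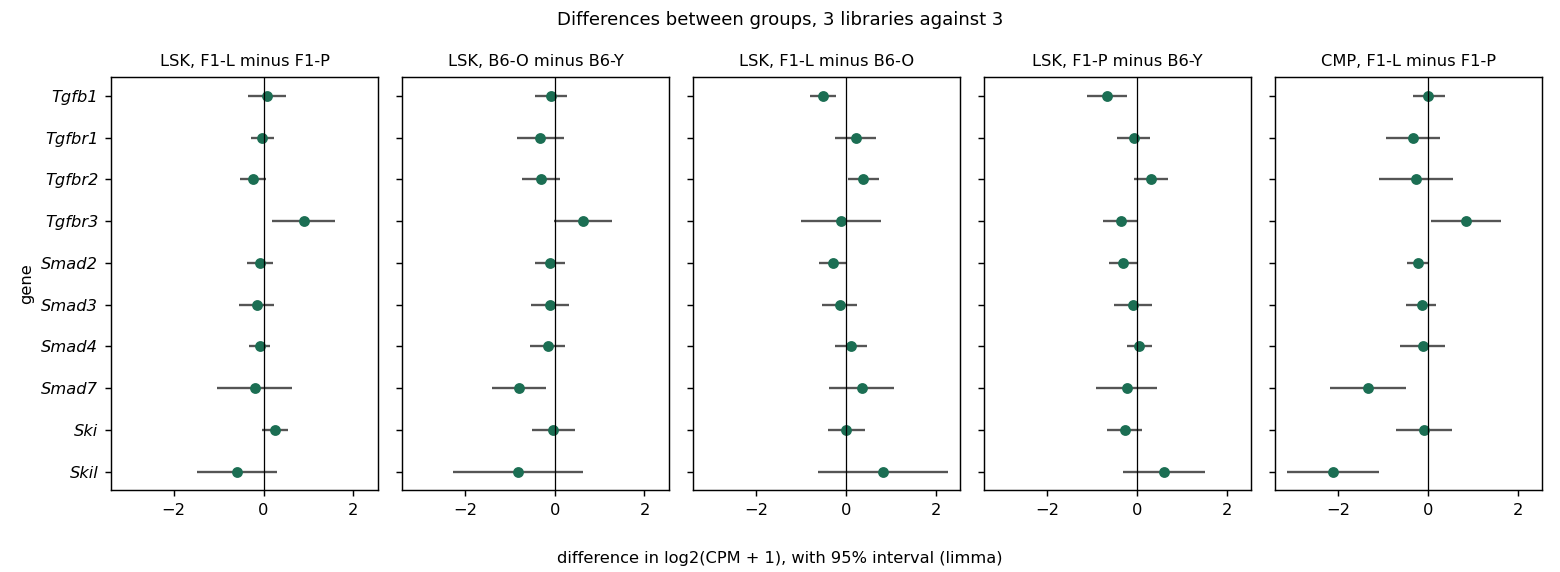
Difference of each of the 10 genes between groups (horizontal axis, log2(CPM + 1) difference) with its 95% interval from limma, for 4 LSK comparisons and 1 CMP comparison. Intervals that leave out 0 belong to Tgfbr3 between F1-L and F1-P LSK, to Smad7 between B6-O and B6-Y, to Tgfb1 in both strain comparisons and Tgfbr2 between F1-L and B6-O, and to Skil, Smad7 and Tgfbr3 in CMPs.

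Among the comparisons of F1-L with F1-P, the widest differences of the 10 genes were those of Skil and Smad7 in CMPs, although neither passed the adjusted test in limma. Skil (chromosome 3, 31095058 to 31122577, plus strand) was 51.1, 152 and 125 CPM in the 3 F1-P CMP libraries and 26.6, 16.2 and 25.4 CPM in the 3 F1-L libraries. All 3 prediseased libraries were above all 3 lupus libraries. The difference was -2.11 (SE 0.424, 95% interval -3.13 to -1.09, unadjusted p = 0.0021), but its limma adjusted p of 0.353 did not pass. Smad7 was 44.2, 65.3 and 109 CPM in F1-P and 24.1, 21.2 and 36.2 CPM in F1-L, again without overlap. Its difference was -1.33 (SE 0.352, unadjusted p = 0.00829, limma adjusted p = 0.394).

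In CMPs Tgfbr3 differed in the direction opposite to Skil and Smad7, which was its direction in LSK too. It was 38.9, 36.4 and 17.8 CPM in F1-P and 69.9, 44.5 and 49.8 CPM in F1-L, so that every lupus library was above every prediseased one. The difference was 0.85 (SE 0.326, unadjusted p = 0.038, limma adjusted p = 0.486). Long-term stem cell markers lay in the same direction, with all 10 higher in F1-L, 4 of them at an unadjusted p under 0.05, and sums of 188, 288 and 190 CPM in F1-P and 421, 323 and 282 CPM in F1-L. Of the 7 platelet and megakaryocyte markers tested 6 were higher in F1-L, with sums of 78.4, 284 and 67.5 CPM in F1-P and 322, 258 and 175 CPM in F1-L. Their part in the Tgfbr3 values was not tested. Smad2 did not overlap either, at 50.8, 59.2 and 61.9 CPM in F1-P and 50.3, 46.6 and 49.8 CPM in F1-L, but differed by only -0.22 (limma adjusted p = 0.554).

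Of the 10 genes, limma called none in CMPs, against 0.00774% of 12926 genes. An unadjusted p under 0.05 was reached by 3 of the 10, Skil, Smad7 and Tgfbr3, against 9.8% of all genes, and 4 of the 10 did not overlap, against 16%. The median difference of the 10 was -0.18, against 0.041 over all genes. edgeR's quasi-likelihood test called 0 of the 10, its likelihood ratio test called 2 and DESeq2 called 2. Over all 12926 genes these tests called 1, 318 and 368, in that order. The member calls were Skil and Smad7 with both tools, with adjusted p of 8.38e-05 and 0.0146 in edgeR's likelihood ratio test and of 1.06e-05 and 0.00768 in DESeq2. The other receptors and Smads overlapped. Tgfbr2 was 27.5, 58.3 and 60.4 CPM in F1-P and 47.5, 29.1 and 40 CPM in F1-L. Tgfbr1 was 36.2, 55.7 and 65.6 CPM in F1-P and 45.1, 32.3 and 44.5 CPM in F1-L and differed by -0.34 (95% interval -0.93 to 0.26). The ligand Tgfb1 was 182, 223 and 228 CPM in F1-P and 245, 179 and 217 CPM in F1-L and differed by 0.011 (95% interval -0.34 to 0.37). Smad3 was 55.2, 64.6 and 75 CPM in F1-P and 65.3, 55.3 and 54.7 CPM in F1-L, while Smad4 was 45.3, 63.2 and 73.9 CPM in F1-P and 62.7, 45.1 and 58.2 CPM in F1-L. Ski was 40.6, 75.8 and 67.6 CPM in F1-P and 69.1, 47.8 and 52.7 CPM in F1-L. The intervals of these overlapping genes were -0.48 to 0.19 for Smad3, -0.63 to 0.39 for Smad4 and -0.71 to 0.54 for Ski. F1-P 1 was the lowest F1-P library for all of the 10 genes except Tgfbr3. Per exon length, Tgfb1 was again the highest in CMPs at 42.1 CPM per kb, and Tgfbr2 was the lowest mean at 5.35, within the spread of Smad2 at 6.05 CPM per kb.

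**Figure D3:**
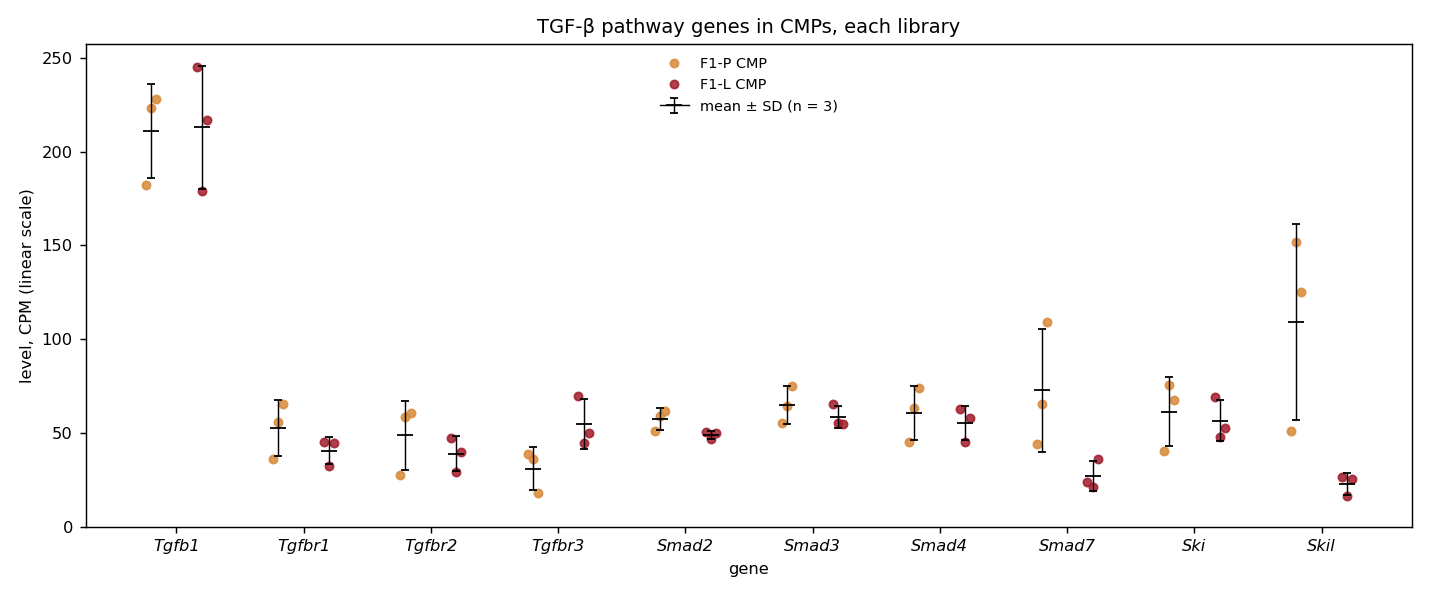
Level of each of the 10 genes in the 6 CMP libraries (vertical axis, CPM, linear), with 1 point per library and the mean ± SD of 3 libraries per group in black. Skil and Smad7 are higher in all F1-P libraries than in all F1-L libraries, Tgfbr3 is lower, and F1-P 1 is the F1-P library nearest to F1-L for Skil and Smad7.

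Neutrophil markers differed in the same direction as Skil and Smad7 in CMPs. The summed level of the 11 neutrophil markers, all detected, was 315, 6450 and 8440 CPM in F1-P and 85.8, 64.2 and 431 CPM in F1-L, and all 11 were lower in F1-L at an unadjusted p under 0.05, with none called by limma. The F1-P libraries 2 and 3, with the highest sums, also had the highest Skil and Smad7. F1-L 3 had a higher sum than F1-P 1, but lower Skil (25.4 against 51.1 CPM) and lower Smad7 (36.2 against 44.2 CPM). In LSK all 11 neutrophil markers were higher in F1-L than in F1-P, where Skil differed by -0.59 and Smad7 by -0.20. Without these 2 libraries F1-P was left with 1 library, assumed to vary like F1-L, and Skil differed by -1.17, Smad7 by -0.72 and Tgfbr3 by 0.45, each with a limma adjusted p of 0.878. Without F1-P replicate 1, on the other hand, the limma fit called both Skil, at -2.58 (adjusted p = 0.0114), and Smad7, at -1.63 (adjusted p = 0.0474). That fit called 434 genes in all. B and plasma cell markers lay in the same direction, with 9 of 9 tested lower in F1-L, 6 of them at an unadjusted p under 0.05, and sums of 114, 314 and 420 CPM in F1-P and 121, 72.4 and 127 CPM in F1-L. Of 5 stromal markers tested 4 were lower, all at an unadjusted p under 0.05, and 1 was higher. Col1a1, at -3.04 (limma adjusted p = 0.0078), was the 1 gene that limma called in CMPs. Of 9 erythroid markers tested 5 were lower, 4 of them at that level, and 4 were higher. All 10 monocyte and macrophage markers were lower, 0 at that level, which 9.8% of all genes reached. The part of all these sets of markers in the Skil and Smad7 values was not tested.

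Whether the lupus difference itself differed between LSK and CMPs was tested as LSK minus CMP. It was 1.52 for Skil (SE 0.614, 95% interval 0.16 to 2.87, unadjusted p = 0.0312, limma adjusted p = 0.681) and 1.13 for Smad7 (95% interval -0.067 to 2.32, limma adjusted p = 0.724). Tgfbr3 gave 0.038 (95% interval -1.01 to 1.09). None of the 10 was called, against 0% of 12627 genes, and 1 of the 10 passed an unadjusted p of 0.05, against 6.95% of all genes. edgeR's tests and DESeq2 called 0 of the 10. Over all genes edgeR's quasi-likelihood test called 0, its likelihood ratio test 215 and DESeq2 247. Without the F1-P CMP libraries 2 and 3 the value for Skil was 0.57.

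**Figure D4:**
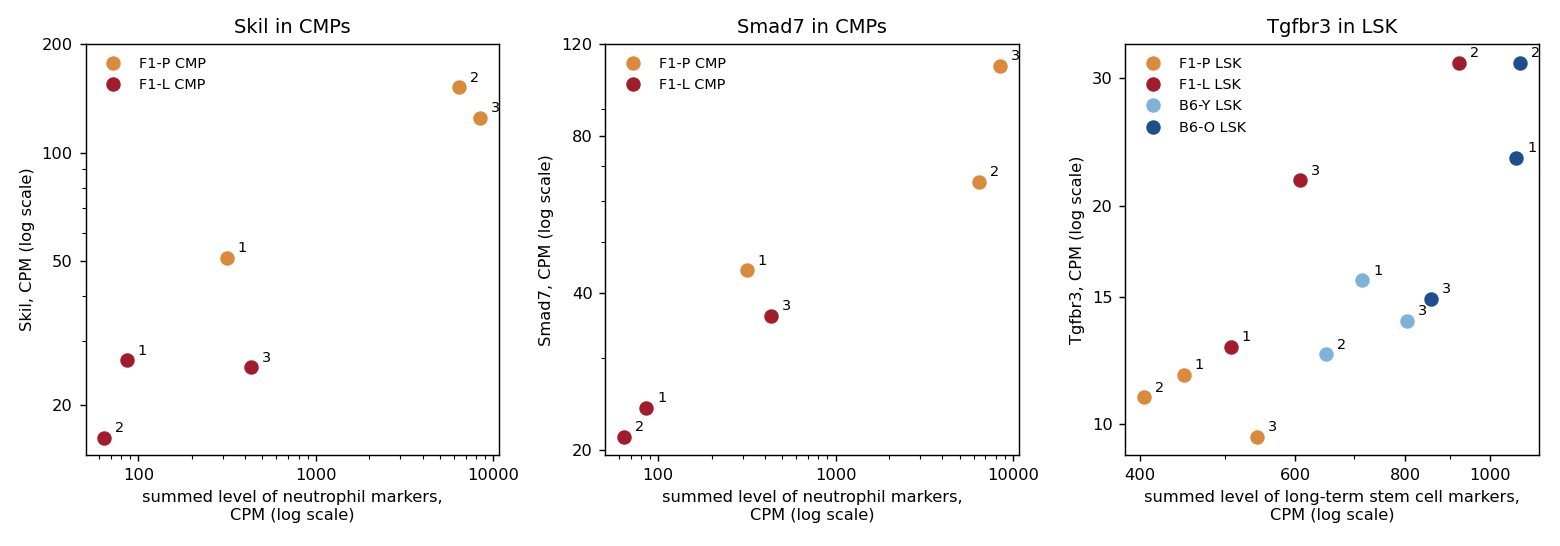
Skil and Smad7 in the 6 CMP libraries against the summed neutrophil markers, and Tgfbr3 in the 12 LSK libraries against the summed long-term stem cell markers (all axes CPM on a log scale, numbers give the replicate). Skil and Smad7 are highest in the F1-P CMP libraries 2 and 3, whose neutrophil sums are 6450 and 8440 CPM. F1-L CMP 3, with a neutrophil sum of 431 CPM, lies above F1-P CMP 1 in that sum but below it in Skil and Smad7. Tgfbr3 is highest, at 31.5 CPM, in F1-L 2 and B6-O 2.

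The wider pathway was described through further lists of ligands, receptors, other Smads, Smad regulators and targets. Of the 16 transcriptional targets, 12 were tested in CMPs, and limma called none in F1-L against F1-P, while 6 were lower and 1 was higher at an unadjusted p under 0.05, a level that 9.8% of all genes reached. Their median difference was -0.96, against 0.041 over all genes. The list was not divided by the direction in which TGF-β moves each gene, so its counts and medians do not measure signalling. The 1 higher target was Myc, by 0.63 (limma adjusted p = 0.353). Bhlhe40 fell most, by -2.26 (limma adjusted p = 0.394), and both were named after their values were seen. Named after their values were seen, Klf10, an early response gene of TGF-β, was 68.0, 90.3 and 69.8 CPM in F1-P and 46.3, 42.9 and 49.7 CPM in F1-L (difference -0.69, limma adjusted p = 0.352). Junb was 230, 433 and 353 CPM in F1-P and 123, 96.7 and 164 CPM in F1-L (difference -1.38, limma adjusted p = 0.353). Id3, an inhibitor of basic helix-loop-helix factors, was 2.26, 6.09 and 6.11 CPM against 0.682, 0.619 and 1.39 CPM, and Cdkn1a, an inhibitor of the cell cycle, 41.2, 80.4 and 105 CPM against 25.0, 11.1 and 31.2 CPM. DESeq2 and edgeR's likelihood ratio test called Klf10, Junb, Id3 and Cdkn1a, with DESeq2 adjusted p of 0.00119, 0.000372, 0.00227 and 0.00719. Over all genes these tests called 368 and 318, and their calls among the other targets were not counted. Without F1-P replicate 1, limma called Klf10, Junb and Id3 (adjusted p = 0.0472, 0.0225 and 0.0154) among 434 genes. The marker sums given for these libraries apply here too, and their part was not tested. All of Klf10, Junb, Id3 and Cdkn1a were lower in every F1-L library, and the F1-P library nearest to F1-L was replicate 1 for Junb, Id3, Cdkn1a and Klf10. In LSK of the same comparison, 3 of 13 tested targets passed at an unadjusted p under 0.05, all higher in F1-L, against 12.8% of all genes, and the median was 0.12, against -0.0096 over all genes.

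Of the 23 Smad regulators, 22 were tested in CMPs, where limma called none and 3 were lower and 0 higher at an unadjusted p under 0.05, against 9.8% of all genes. Tgif1, a co-repressor that competes with co-activators for Smads and that was named after its values were seen, was 66.7, 89.1 and 94.7 CPM in F1-P CMPs and 46.1, 39.9 and 47.7 CPM in F1-L CMPs (difference -0.88, limma adjusted p = 0.352). It was called by DESeq2 (adjusted p = 0.000101), by edgeR's likelihood ratio test (adjusted p = 0.000839) and by limma without F1-P replicate 1 (adjusted p = 0.0129). In LSK of F1-L against B6-O, limma called 3 of the 23, 1 higher and 2 lower, a share near the 11.6% of all genes. The lower ones were Ldlrad4, which keeps receptors from activating Smads, and Fkbp1a, which binds the type I receptor. Ldlrad4 was 9.41, 8.03 and 7.10 CPM in F1-L and 17.1, 18.8 and 14.4 CPM in B6-O (difference -0.95, limma adjusted p = 0.0205), and Fkbp1a was 61.8, 76.7 and 84.1 CPM in F1-L and 123, 142 and 148 CPM in B6-O (difference -0.89, limma adjusted p = 0.0113). Leaving out single libraries took the call from Ldlrad4 in 5 of 6 cases and from Fkbp1a in 3 of 6, with a limma adjusted p of up to 0.119 and 0.0563.

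Of the 14 genes for ligands and activation, 9 were tested between F1-L and B6-O and 10 between F1-P and B6-Y. In the first comparison limma called 3 of 9, all higher in F1-L, against 11.6% of all genes. In the second it called 4 of 10, 3 higher and 1 lower in F1-P, against 16.2% of all genes. The 3 called in both were Tgfb2, a ligand, Ltbp4 and Ltbp1, the last of which stores latent TGF-β in the matrix, and Ltbp4 differed by 1.10 and 1.15 (limma adjusted p = 0.0335 and 0.00407). Tgfb2 was 2.16 to 3.98 CPM in F1-L, 2.35 to 7.53 in F1-P, 0.218 to 0.869 in B6-O and 0.270 to 0.465 in B6-Y. Ltbp1 was 2.23 to 2.56 CPM in F1-L, 2.47 to 4.38 in F1-P, 0.284 to 0.653 in B6-O and 0.574 to 0.589 in B6-Y. The differences of F1-L from B6-O were 1.45 for Tgfb2 (limma adjusted p = 0.0116) and 1.20 for Ltbp1 (limma adjusted p = 0.00505), and those of F1-P from B6-Y were 2.09 (limma adjusted p = 0.0044) and 1.49 (limma adjusted p = 0.00228). Both genes were at low levels, and the F1-P differences reached 3.88 for Tgfb2 and 2.62 for Ltbp1 in DESeq2, while without B6-O replicate 1 or 2 the F1-L difference of Tgfb2 lost its call (limma adjusted p = 0.0609 and 0.0555). Between F1-L and F1-P limma called no gene of the list, in LSK or in CMPs, where it called 0.0279% and 0.00774% of all genes. Thbs1, named after its values were seen, had the widest difference of the list in both cell types, in opposite directions. It was 1.96 in LSK (limma adjusted p = 0.199) and -2.01 in CMPs (limma adjusted p = 0.513).

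Among receptors of the activin, nodal and BMP branch, 9 of 11 were tested in LSK. Of the 9, limma called 3 between F1-P and B6-Y, all lower in F1-P, against 16.2% of all genes. Between F1-L and B6-O it called 0, against 11.6%, and 4 were lower at an unadjusted p under 0.05, against 27.5%. Acvr1b, an activin type I receptor, was 73.5, 56.3 and 61.5 CPM in B6-Y and 34.4, 34.5 and 36.8 CPM in F1-P, a difference of -0.83 (limma adjusted p = 0.00566). Between F1-L and B6-O, Acvr1b differed by -0.87 (limma adjusted p = 0.0947) and was called by DESeq2 (adjusted p = 0.0218), by edgeR's likelihood ratio test (adjusted p = 0.0196), by limma over all 12 LSK libraries (adjusted p = 0.026) and without B6-O replicate 3 (-1.18, limma adjusted p = 0.00416). Between F1-L and F1-P LSK limma called none of the 9, and 5 were higher in F1-L at an unadjusted p under 0.05, against 12.8% of all genes. Between B6-O and B6-Y it called 0, and 1 was higher at that level, against 6.62%. That gene was Bmpr1a, named after its values were seen. It differed by 2.42 between B6-O and B6-Y (limma adjusted p = 0.0533) and by 1.92 between F1-L and F1-P (limma adjusted p = 0.164). Of the 13 targets tested between F1-P and B6-Y, limma called 1 higher and 1 lower, against 16.2% of all genes called, the lower being Tgfbi, a matrix protein named for its induction by TGF-β (18.3, 29.8 and 16.4 CPM in B6-Y and 4.91, 8.17 and 9.52 CPM in F1-P, difference -1.39, limma adjusted p = 0.0154). Tgfbi was not lower in the older mice, where F1-L differed from B6-O by 0.26. Between F1-L and F1-P LSK it was higher in F1-L by 2.13 (limma adjusted p = 0.172). All 10 monocyte and macrophage markers were lower in F1-P than in B6-Y LSK, with a median difference of -0.7. All 10 were higher in F1-L than in F1-P (median 1.53) and higher in F1-L than in B6-O (median 1.51). Their part in the Tgfbi values was not tested. Among the other Smads, limma called none of the 3 tested in any comparison. Smad5, which transmits BMP signals and had the highest level of them, was 104, 109 and 110 CPM in F1-P and 108, 101 and 111 CPM in F1-L.

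CMPs were set beside LSK on recovered reads of both tables, scaled together. Of the 10 genes, 3 were lower in every CMP library than in every NZBW/F1 LSK library, and 0 were higher. Over all 14412 genes, 48.9% did not overlap, 27% with CMPs above and 21.8% with CMPs below, so that the 3 of 10 with CMPs below stand beside 21.8% of all genes in that direction. Tgfbr2 was 83.9 to 122 CPM in LSK and 26.5 to 54.7 in CMPs, a difference of -1.37 on the log2 scale. Smad3 was 77.8 to 120 CPM in LSK and 51.3 to 67.9 in CMPs, and Smad4 was 71.2 to 85.2 in LSK and 43.2 to 66.8 in CMPs. These values are a description without a test, and the median difference of the 10 was -0.57, against 0.0026 over all genes.

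Skil differed more in its mean but overlapped through 1 library, F1-P CMP 2 at 139 CPM. It was 127 to 448 CPM in LSK and 15.5 to 139 in CMPs, with a mean log2 difference of -2.32. Tgfb1, Tgfbr3 and Smad2 had higher means in CMPs, with overlapping ranges. Tgfbr3 was 9.04 to 29.6 CPM in LSK and 16.1 to 63.3 in CMPs, a difference of 1.34. With scaling by the median of ratios or without immunoglobulin genes, 4 of the 10 did not overlap, Ski in addition, all with CMPs below. Under these scalings 48.2% and 47.6% of all genes did not overlap, 23% and 22.6% with CMPs below.

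**Figure D5:**
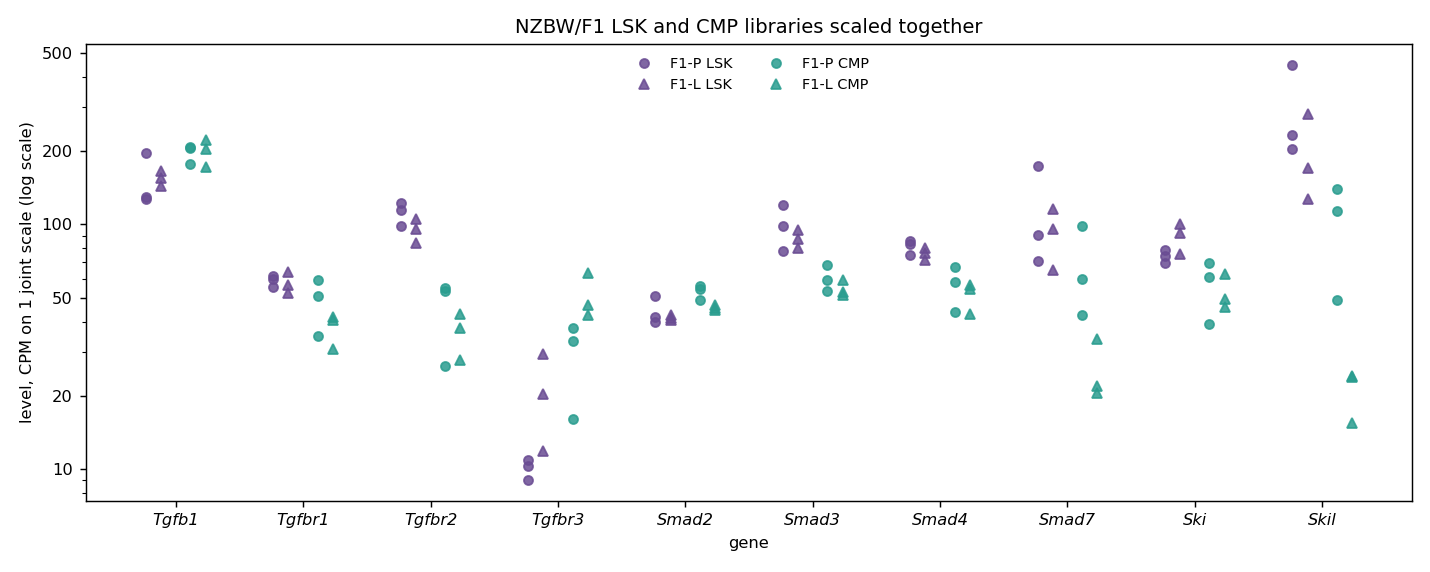
Level of the 10 genes in the 12 NZBW/F1 libraries on 1 joint scale (vertical axis, CPM, log scale), LSK and CMPs in colour, with circles for F1-P and triangles for F1-L. Tgfbr2, Smad3 and Smad4 lie lower in every CMP library than in every LSK library, and Tgfbr3 is highest in the F1-L CMP libraries.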

How the data were processed

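RNA of sorted LSK and CMP cells was sequenced on a NextSeq instrument from unstranded libraries. The authors aligned single-end reads with STAR 2.6 to mm10, obtained gene counts with HTSeq, and 1 table per cell type was deposited, each normalized on its own. The deposited values, treated here as a normalized signal, are CPM of a library size scaled by edgeR. At a tolerance of 0.1 reads, 100.0% of the values came back as whole reads, which served the count tests, although plain CPM had been planned for.

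Genes with at least 1 CPM in at least 3 libraries were tested with limma 3.58.1 (R 4.3.3; trended variance) on log2(CPM + 1), with Benjamini-Hochberg adjustment over all genes tested. Alternatives were edgeR 4.0.16, DESeq2 1.42.0, other pseudocounts, filters and scalings, a replicate block, and fits without single libraries. On recovered reads, edgeR's quasi-likelihood test was the main count test. No library pair agreed within sampling noise: the lowest chi-square per degree of freedom was 10.9. The tests were tested on simulated data. The 10 genes and the lists were chosen with earlier results of these data known. All 10 genes were named, and, over the further lists together, in each comparison the 2 called genes that rose most and the 2 that fell most, or, where a list had no called gene in LSK, its gene of the highest mean CPM. Genes named after their values were seen are marked. Groups came from the labels. Reads of NZBW/F1 mice that differ from the C57BL/6 reference may be lost in alignment.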

Additional observations from a re-analysis of the deposited data

How the results depend on the processing

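None of the 10 genes was called by limma, so no call among them could be lost. Differences near 0 changed sign when single libraries were left out, such as Smad7 between F1-L and F1-P LSK (-0.48 to 0.17). Of the 10 genes, DESeq2 called 1 between F1-L and F1-P LSK, 1 between F1-P and B6-Y and 2 in CMPs, edgeR's likelihood ratio test called 2 in CMPs, dropping the 1.5-fold minimum gave 1 between F1-L and B6-O, and fitting all 12 LSK libraries together gave 1 between F1-P and B6-Y. Leaving out single libraries gave 0 to 2 of the 10 between F1-P and B6-Y and 0 to 2 in CMPs, where the 2 came without F1-P replicate 1. With the replicate number as a replicate block, 1 of the 10 was called between F1-P and B6-Y, Tgfb1 (-0.67, limma adjusted p = 0.0331), while its difference of -0.51 between F1-L and B6-O no longer passed (limma adjusted p = 0.0815). In no comparison did all same-numbered libraries deviate together, with correlations above 0.1 for every number: they were 0.33, 0.32 and 0.068 between F1-P and B6-Y, 0.0029, 0.061 and 0.05 between F1-L and B6-O, -0.015, -0.043 and 0.026 between F1-L and F1-P LSK, 0.47, -0.36 and 0.32 between B6-O and B6-Y, and -0.45, -0.32 and 0.62 in CMPs. Every library correlated best with its own number in none of them. Leaving out libraries by their markers was chosen after seeing the data.

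Counts over all genes moved more. Genes called were 4 between F1-L and F1-P LSK, 746 with DESeq2 and 657 with the likelihood ratio test, and 1 in CMPs, with 368 and 318. Between B6-O and B6-Y they were 0, with 198 and 110. In the differences of differences they were 0 by strain, with 32 and 10, and 0 by cell type, with 247 and 215. Leaving out single libraries gave 0 to 434 in CMPs and 448 to 2285 between F1-L and B6-O. The cause was not tested.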
